A study of Mus musculus with 8 samples.

Results

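The genes described here are 10 nuclear genes whose proteins fold or degrade other proteins inside mitochondria. Hspd1, Hspe1 and Hspa9 encode chaperones of the matrix, and Lonp1, Clpp, Clpx, Afg3l2, Yme1l1, Spg7 and Htra2 encode proteases or their subunits. They were chosen by gene symbol, not by a rule on their counts, as members of the mitochondrial unfolded protein response. Earlier results of these data were known when they were chosen. All 10 were found among 22065 named genes, and all 10 passed the filter on low counts that left 16444 genes for testing. Transcripts were measured by bulk RNA-seq in sorted HSCs of mouse bone marrow, with 4 MitolΔ/Δ libraries (Mitol Flox/Flox; MX1-cre+) and 4 control libraries (Mitol Flox/Flox; MX1-cre-). Both groups had the floxed alleles and both received Poly:IC, which induces the cre, 1 week before 100 cells per library were sorted. The mice were C57BL/6 and 8 to 10 weeks old according to the labels. MX1-cre acts in many interferon-responsive cells, so the deletion was not restricted to HSCs. The labels do not say whether each library came from its own mouse, so the p-values measure the spread between these libraries, which may be technical.

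Most mitochondrial proteins are made in the cytosol, threaded through the membranes unfolded and refolded in the matrix. HSPA9, the mitochondrial HSP70, pulls them in, and the chaperonin of HSPD1 (HSP60) with its lid HSPE1 (HSP10) folds them, while proteases driven by ATP remove those that are misfolded or damaged. When unfolded proteins pile up in the matrix, cells raise transcripts of these chaperones and of some of the proteases, a program called the mitochondrial unfolded protein response. In HSCs this response has been studied as cells leave quiescence, when more mitochondrial protein is made. MITOL, the deleted ubiquitin ligase, sits on the outer membrane of mitochondria and is encoded by Marchf5.

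Library totals ran from 7214935 to 12398138 counts on named genes, of which the 10 genes held between 0.0653% and 0.0909%. Marchf5 had 232 to 308 normalized counts in MitolΔ/Δ and 262 to 333 in control HSCs (log2 fold change -0.15, adjusted p = 0.498 by edgeR), so its summed reads do not mark the deleted libraries. All 8 HSC markers checked were detected, and their summed normalized counts were 19130.4 to 22728 in MitolΔ/Δ against 27382 to 32451 in control HSCs. Of these markers, Kit and Hlf fell past the threshold in MitolΔ/Δ HSCs. Kit had 7057 normalized counts on average in MitolΔ/Δ and 11706 in control HSCs, and Hlf had 5573 and 9505. Kit encodes CD117, which is part of the paper's definition of LT-HSCs. Procr, which encodes the EPCR of the sort, had a log2 fold change of -0.34 (edgeR adjusted p = 0.179). Mecom, Fgd5 and Ctnnal1 had -0.13, -0.10 and -0.06 (edgeR adjusted p = 0.389, 0.467 and 0.860). Slamf1, which encodes the CD150 of the sort, had 525 ± 109 normalized counts in MitolΔ/Δ and 353 ± 51.6 in control HSCs without overlap (log2 fold change 0.56, adjusted p = 0.0501 by edgeR and 0.0125 by DESeq2), and Ly6a had 924 ± 360.0 and 541 ± 70.7 (0.76, adjusted p = 0.0605 and 0.0113). The sort took CD48-negative cells, and Cd48 had 22.2 to 63.4 normalized counts in MitolΔ/Δ and 4.49 to 21.7 in control HSCs. It rose past the threshold at these low counts (log2 fold change 1.72, adjusted p = 0.0450 by edgeR and 0.00952 by DESeq2). Among red-cell transcripts, Hbb-bt rose, with 801 to 1432 normalized counts in MitolΔ/Δ and 144 to 595 in control HSCs (log2 fold change 1.29, edgeR adjusted p = 0.0442), and Klf1 had 92.5 and 103 in MitolΔ/Δ replicates 3 and 4 against 1.32 to 21.8 in the other libraries. Hba-a1 was high in MitolΔ/Δ replicate 3, with 388 against 0 to 7.91 in the other libraries. In bulk samples, fewer cells of a type and less RNA per cell cannot be told apart.

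The matrix chaperones rose in MitolΔ/Δ HSCs and none of the proteases passed the test in either direction. Hspe1 was 1.76-fold, Hspd1 1.63-fold and Hspa9 1.39-fold higher, so 3 of 10 genes (30%) were past an adjusted p of 0.05, all chaperones. Over all tested genes 8.43% were past it, 4.68% as higher and 3.75% as lower in MitolΔ/Δ HSCs. Genes were tested with edgeR by quasi-likelihood, with p-values adjusted after Benjamini and Hochberg over the 16444 genes. Limma-voom also called 3 of the 10, all as higher, where it called 8.35% of all genes and 4.47% as higher. DESeq2 called 4 of 10, again all as higher, where it called 14.1% of all genes and 8.04% as higher. The calls depended on individual libraries. Without MitolΔ/Δ replicate 1, 2 or 3 or control replicate 2, 3 or 4, 0 of the 10 were past the threshold, with adjusted p-values of the chaperones between 0.0576 and 0.106, in fits that called 359 to 811 genes in all. Without MitolΔ/Δ replicate 4 or control replicate 1, 4 were past it, the chaperones and Clpp, in fits that called 2501 and 1319 genes in all.

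Hspd1 encodes the barrel of the chaperonin, in which matrix proteins fold. Its normalized counts, which are counts divided by a size factor of each library, were 971, 896, 791 and 626 in MitolΔ/Δ replicates 1 to 4 and 645, 463, 521 and 371 in control replicates 1 to 4. MitolΔ/Δ replicate 4 lay just under control replicate 1, and the other 3 MitolΔ/Δ libraries were above every control library. The means were 821 ± 149 and 499.9 ± 115 (SD, n = 4 libraries each), a log2 fold change of 0.70 (SE 0.169, 95% interval 0.33 to 1.07, edgeR adjusted p = 0.0288).

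Hspe1 encodes the lid that closes the barrel. It had 272, 309, 304 and 223 normalized counts in MitolΔ/Δ replicates 1 to 4 and 218, 134, 171 and 101 in control replicates 1 to 4. The groups did not overlap, though MitolΔ/Δ replicate 4 and control replicate 1 were again the closest libraries. The means were 277 ± 39.3 and 156 ± 50.0 (SD, n = 4), a log2 fold change of 0.82 (SE 0.213, 95% interval 0.35 to 1.28, edgeR adjusted p = 0.0368).

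Hspa9 encodes the HSP70 of the matrix, the motor of protein import. Its normalized counts were 2220.5, 2147, 1809.8 and 1678 in MitolΔ/Δ replicates 1 to 4 and 1617, 1416, 1413 and 1138 in control replicates 1 to 4. The order of the MitolΔ/Δ libraries was the same as for Hspd1, and the groups did not overlap. The means were 1964 ± 261 and 1396 ± 197 (SD, n = 4), a log2 fold change of 0.47 (SE 0.119, 95% interval 0.22 to 0.73, edgeR adjusted p = 0.0324).

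**Figure D1:**
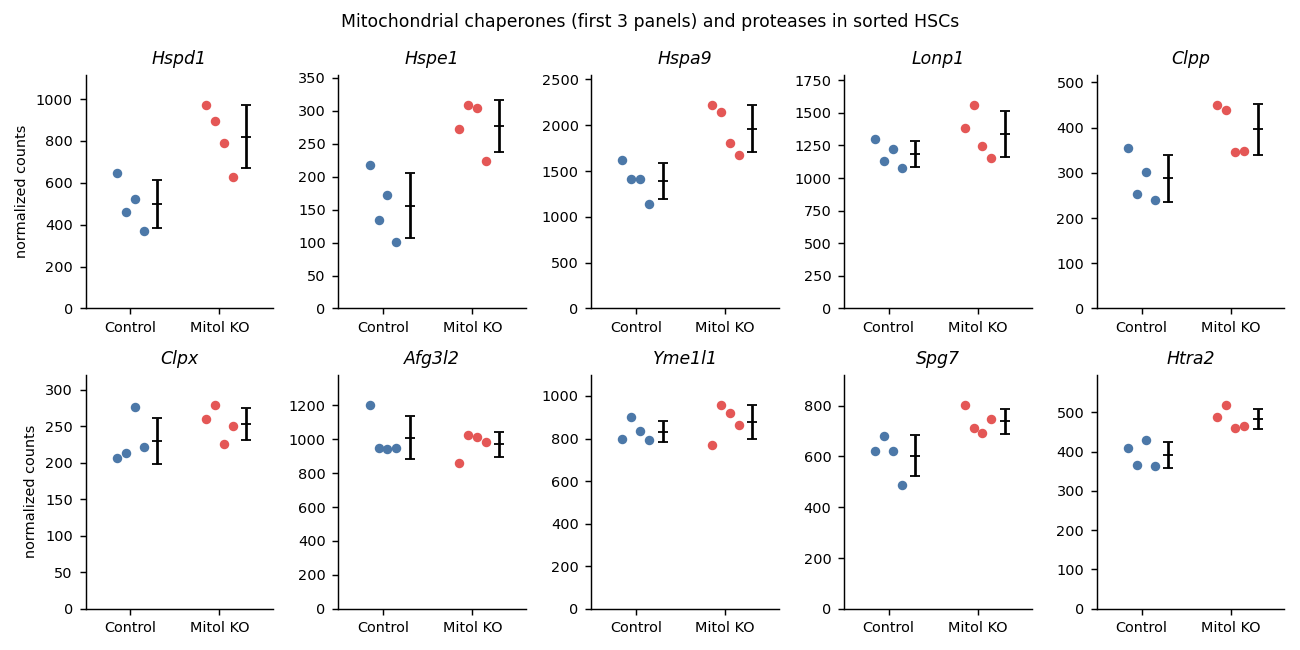
Normalized counts of the 10 genes in each library, 1 panel per gene with the vertical axis from 0. Blue points are the 4 control and red points the 4 MitolΔ/Δ libraries, in replicate order from left to right, and black bars are the mean ± SD; the groups stand apart in Hspe1, Hspa9, Spg7 and Htra2, and the highest point of Afg3l2 is control replicate 1.

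Hspd1 and Hspe1 are neighbours that point away from each other. On GRCm39, Hspd1 runs from 55116994 to 55127183 on the reverse strand of chromosome 1 and Hspe1 from 55127291 to 55130466 on the forward strand, with 107 bases between their start sites in the GENCODE annotation. Those bases are shown because both genes rose and both start from them. Capitals mark the heat shock element, a run of alternating TTC and GAA units that heat shock factors bind.

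Hspd1-Hspe1 shared promoter, chr1:55127184-55127290, forward strand: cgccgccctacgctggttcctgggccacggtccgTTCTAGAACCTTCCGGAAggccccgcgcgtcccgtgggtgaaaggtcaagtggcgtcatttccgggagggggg

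An element of 3 units, written TTCNNGAANNTTC or GAANNTTCNNGAA, was found at bases 35 to 47 and, overlapping it, at bases 40 to 52. Searched on both strands, the same stretch held no TGATGNAAT (the composite site of ATF4 and C/EBP), no TGCAAT (a C/EBP and CHOP site), no CACGTG (the E-box of MYC) and no GCGCNNGCGC (an NRF1 site). Among 32851 RefSeq promoter windows of GRCm38.p6, each from 250 bases before to 50 after a start, 0.603% held an element of 3 units. Of the 10 genes, 7 had a window in that table (all but Hspa9, Afg3l2 and Htra2), with 8 windows in all. The element of 3 units was in the Hspe1 window and in 1 of the 2 Hspd1 windows, the same windows that held TGCAAT, which 8.40% of all windows hold. Those windows start at bases 55087898 (Hspe1) and 55087883 (Hspd1), so they cover nearly the same sequence and their matches are not separate sites. CACGTG was in the other Hspd1 window and in the Lonp1 window (7.15% of all windows), and GCGCNNGCGC in both Hspd1 windows and those of Hspe1 and Spg7 (6.23%). TGATGNAAT (0.965% of all windows) was in none of the 8, and the windows of Clpx and Yme1l1 held none of the motifs. TTCNNGAA or GAANNTTC, an element of 2 units that also lies within each longer one, was in the Clpp window as well (15.1% of all windows). A match describes the letters of the window and no binding was measured.

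Per transcript length, Hspe1 stood at 0.857 to 1.06 of the Hspd1 level in control HSCs and at 0.878 to 1.20 in MitolΔ/Δ HSCs. These ranges overlapped, so the proportion of lid to barrel transcripts did not separate the groups. The chaperones together made up 28.0% to 33.6% of the normalized counts of the 10 genes in control and 34.4% to 40.9% in MitolΔ/Δ HSCs, with control replicate 1 and MitolΔ/Δ replicate 4 next to each other.

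Hspe1 has processed copies elsewhere in the genome, and their reads could be split between rows by the counting. The rows of 4 such copies held 16.9% to 31.5% of the reads of Hspe1 and its copies in each library, while the row of the Hspd1 copy held at most 0.504%. Hspe1-ps5 had 285 counts over all libraries (log2 fold change 0.47, edgeR adjusted p = 0.394), Hspe1-ps3 114 and Hspe1-ps2 71, and Hspd1-ps3 had 12. The start of the Hspe1 coding sequence and its counterpart in Hspe1-ps5 (chr2:72786242-72786538 of GRCm39) show how a read can be told apart, with the differing bases in capitals.

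Hspe1: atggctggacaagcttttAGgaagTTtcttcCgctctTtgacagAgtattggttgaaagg

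Hspe1-ps5: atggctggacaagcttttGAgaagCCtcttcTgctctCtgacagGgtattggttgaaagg

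Of 294 aligned bases 277 were identical (94.2%), and of the 232 windows of 75 bases, the read length, in the whole Hspe1 coding sequence of 306 bases, 0 were found unchanged in the copy. With the reads of all copies added to Hspe1, its log2 fold change was 0.73.

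The 7 proteases moved less. Their log2 fold changes ran from -0.08 to 0.45 with a median of 0.16, against 0.70 for the chaperones and -0.02 for all tested genes, and whether chaperones and proteases differed was not tested. None passed an adjusted p of 0.05 by edgeR or limma-voom, and 3 of 7 had an unadjusted p under 0.05, all as higher, where 26.4% of all genes did, 13.6% as higher. DESeq2 called 1 of 7, Clpp. Over all 10 genes, 9 were higher in MitolΔ/Δ HSCs by any amount, where 47.7% of all genes were, and 4 did not overlap between the groups with MitolΔ/Δ higher, where 8.17% of all genes did. None of the 10 stood apart with MitolΔ/Δ lower, where 7.18% of all genes did.

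Clpp and Clpx form a protease of the matrix. Clpp encodes the chamber that cuts, and it had 450.0, 439.6, 346 and 349 normalized counts in MitolΔ/Δ replicates 1 to 4 and 356, 253, 301 and 239.8 in control replicates 1 to 4. MitolΔ/Δ replicates 1 and 2 were above every control library, and replicates 3 and 4 were below control replicate 1. The log2 fold change was 0.45 (SE 0.150, 95% interval 0.12 to 0.77), with an adjusted p of 0.0838 by edgeR, 0.0704 by limma-voom and 0.0418 by DESeq2. Clpx encodes the ring that unfolds proteins for it, and had 259.8, 278, 226 and 249.7 normalized counts in MitolΔ/Δ replicates 1 to 4 and 207, 214, 276 and 221 in control replicates 1 to 4. The groups overlapped, and the log2 fold change was 0.12 (95% interval -0.18 to 0.42, edgeR adjusted p = 0.611). The Clpx level per Clpp level, both per transcript length, was 0.199 to 0.247 in MitolΔ/Δ HSCs and 0.201 to 0.318 in control HSCs, where control replicate 1 lay within the MitolΔ/Δ range and the other 3 above it.

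Lonp1 encodes the other soluble protease of the matrix, which degrades oxidized proteins and acts at mitochondrial DNA. It had 1385, 1559.7, 1245 and 1152 normalized counts in MitolΔ/Δ replicates 1 to 4 and 1302, 1134, 1222 and 1076 in control replicates 1 to 4. MitolΔ/Δ replicates 1 and 2 were above every control library and replicates 3 and 4 within the control range. The log2 fold change was 0.16 (SE 0.105, 95% interval -0.07 to 0.38, edgeR adjusted p = 0.371). This interval overlapped those of Hspd1, Hspe1, Hspa9 and Clpp, and differences between genes were not tested.

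Afg3l2 and Spg7 encode subunits of the m-AAA protease, which faces the matrix from the inner membrane. Afg3l2 had 858, 1022, 1014 and 983 normalized counts in MitolΔ/Δ replicates 1 to 4 and 1200.1, 947, 942 and 951 in control replicates 1 to 4. By this normalization control replicate 1 was the highest library and the other 3 control libraries lay within the MitolΔ/Δ range. Per transcript length, Afg3l2 had 60.1, 69.6, 69.1 and 65.2 in MitolΔ/Δ and 78.8, 69.6, 69.8 and 79.3 in control replicates 1 to 4. On that scale control replicate 4 was highest, with control replicate 1 next to it. The log2 fold change was -0.08 (SE 0.106, 95% interval -0.31 to 0.15, edgeR adjusted p = 0.690), and without control replicate 1 it was 0.029. Spg7, which encodes paraplegin, had 801, 714, 691 and 747 normalized counts in MitolΔ/Δ replicates 1 to 4 and 621, 679, 623 and 489 in control replicates 1 to 4. All MitolΔ/Δ libraries were above all control libraries by this normalization, though not per transcript length, with a log2 fold change of 0.28 (SE 0.111, 95% interval 0.03 to 0.52, edgeR adjusted p = 0.138). The Spg7 level per Afg3l2 level, per transcript length, was 0.526 to 0.721 in MitolΔ/Δ and 0.397 to 0.553 in control HSCs, so these ranges overlapped.

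Yme1l1 encodes the i-AAA protease, which faces the intermembrane space. It had 772, 956, 919 and 864 normalized counts in MitolΔ/Δ replicates 1 to 4 and 799, 899, 835 and 792 in control replicates 1 to 4. MitolΔ/Δ libraries were both the lowest and the highest of the 8. The log2 fold change was 0.06 (95% interval -0.15 to 0.27, edgeR adjusted p = 0.737).

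Htra2 encodes a serine protease of the intermembrane space that, once released, binds inhibitors of caspases. It had 488, 517, 460.5 and 466 normalized counts in MitolΔ/Δ replicates 1 to 4 and 409, 365, 430.5 and 364 in control replicates 1 to 4. The groups did not overlap by this normalization but did so per transcript length, and the log2 fold change was 0.28 (SE 0.105, 95% interval 0.05 to 0.51, edgeR adjusted p = 0.112). Its exons (chromosome 6 of GRCm39, 83027597 to 83031704, reverse strand) share 73.5% of their bases with genes of the opposite strand, 41.7% with Loxl3 and 31.8% with Aup1. The strand setting of the counting is not given in the sources used here, so reads of these genes may not be told apart. Aup1 had a log2 fold change of 0.12 (edgeR adjusted p = 0.457) and Loxl3 of 0.31 (adjusted p = 0.363). Among the other genes, exons of Hspa9, Clpp and Spg7 share 20.4%, 19.0% and 4.84% of their bases with lncRNA genes of the opposite strand, Lonp1 shares 7.13% with Rpl36 and Hspe1 shares 14.5% with longer transcripts of Hspd1.

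**Figure D2:**
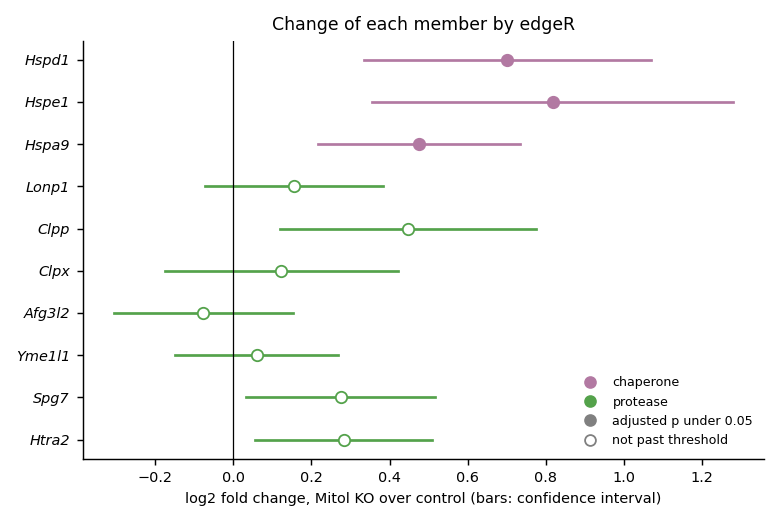
Log2 fold change of each gene, MitolΔ/Δ over control HSCs, by edgeR (horizontal axis), with its 95% interval. Filled points mark an adjusted p under 0.05; the 3 chaperones are filled, and the intervals of Clpp, Spg7 and Htra2 lie above 0 without passing the adjusted threshold.

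Levels of different genes were compared per transcript length, as TPM (transcripts of each gene scaled to the same sum in every library) over the 21434 genes with a length. In control HSCs, Hspa9 (95.0 ± 4.72) and Lonp1 (91.4 ± 3.60) were the highest of the 10 and their ranges overlapped. Afg3l2 followed at 74.4 ± 5.40, below every value of these and above every value of the rest. Hspd1 (47.3 ± 6.50), Hspe1 (46.0 ± 10.7), Clpp (44.2 ± 4.54), Yme1l1 (38.8 ± 4.05), Htra2 (36.0 ± 3.18) and Spg7 (34.3 ± 3.43) came next, each overlapping with its neighbours in this order. Clpx was lowest at 12.3 ± 2.18, apart from all others (SD, n = 4 libraries for each). The chamber subunit Clpp thus stood above its unfolding partner Clpx in every library, and Afg3l2 above its partner Spg7.

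In MitolΔ/Δ HSCs the order began with Hspa9 (124 ± 18.9) and Lonp1 (95.5 ± 13.8), followed by Hspe1 (76.8 ± 11.6) and Hspd1 (72.8 ± 14.7), which thereby stood before Afg3l2 (66.0 ± 4.40). The ranges of Hspe1, Hspd1 and Afg3l2 overlapped. Clpp (56.8 ± 9.04), Htra2 (40.9 ± 2.64), Spg7 (38.9 ± 3.09) and Yme1l1 (37.6 ± 3.14) followed, and Clpx was again lowest at 12.5 ± 1.16. On this scale the mean of Yme1l1 was lower in MitolΔ/Δ than in control HSCs, unlike by the size factors, and Spg7 and Htra2 overlapped between the groups. The lowest MitolΔ/Δ library had 36.4 for Spg7 and 38.4 for Htra2, and the highest control library 38.5 and 39.7. Levels per length depend on the transcript chosen, and with the longest transcript of each gene Hspa9 had 109.6 and Lonp1 68.7 in control HSCs.

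**Figure D3:**
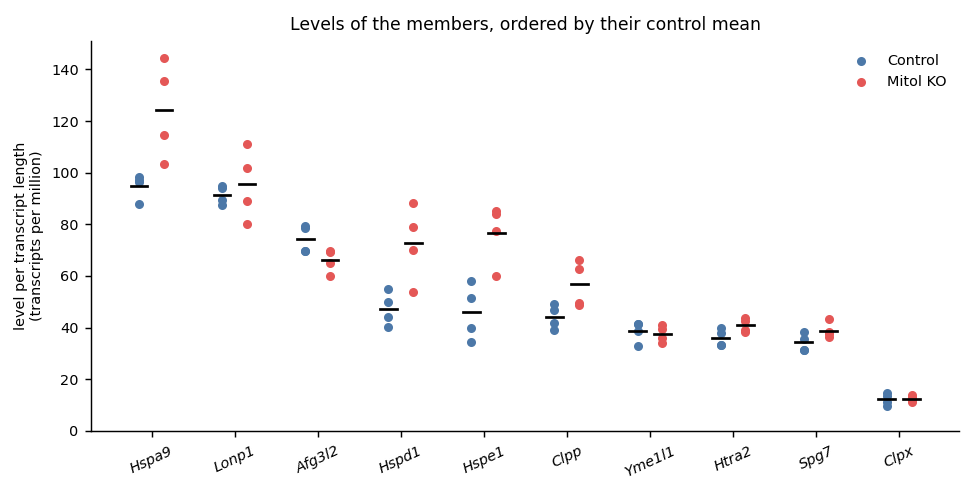
Level per transcript length of the 10 genes (vertical axis, TPM) in each library, ordered by the control mean. Blue points are control and red points MitolΔ/Δ libraries, and black lines are group means; Hspa9 and Lonp1 are highest and Clpx is lowest in both groups.

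Other genes of the same machinery were set beside these. Of 12 other mitochondrial chaperones and assembly factors, 0 passed the edgeR threshold in either direction, where 8.43% of all genes did. Of the 12, 3 had an unadjusted p under 0.05, where 26.4% of all genes did. DESeq2 called 2 (14.1% of all genes) and limma-voom 0 (8.35% of all genes), and their median log2 fold change was 0.18. Trap1, the mitochondrial HSP90 and the most abundant of them, had 1747 ± 175 normalized counts in MitolΔ/Δ and 1540.5 ± 205 in control HSCs (log2 fold change 0.16, edgeR adjusted p = 0.362). Clpb, a disaggregase, had 852 ± 100.3 and 671 ± 68.5 (0.33, adjusted p = 0.0899), and Dnaja3, a J-domain partner of HSPA9, had 796 ± 100.2 and 608 ± 66.4 (0.37, adjusted p = 0.0681). DESeq2 called Clpb (adjusted p = 0.0495) and Dnaja3 (0.0293). Without MitolΔ/Δ replicate 4, edgeR called 2 of the 12, in a fit that called 2501 of 16907 genes.

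Of 12 other mitochondrial proteases and peptidases, 0 passed the edgeR threshold (8.43% of all genes) and 1 had an unadjusted p under 0.05 (26.4% of all genes). DESeq2 called 0 (14.1% of all genes) and limma-voom 0 (8.35%), and the median log2 fold change was 0.08. Pmpca, a subunit of the peptidase that cuts import signals, had 1090.1 ± 71.5 normalized counts in MitolΔ/Δ and 997 ± 50.6 in control HSCs (log2 fold change 0.11, edgeR adjusted p = 0.439). Pitrm1, which degrades the cut signals, had 1025 ± 114 and 886 ± 101 (0.19, adjusted p = 0.285). Oma1, the stress-activated protease of the inner membrane, had 189.5 ± 35.1 and 199 ± 41.9 (-0.09, adjusted p = 0.808). Without control replicate 1, edgeR called 2 of the 12, in a fit that called 1319 of 16856 genes.

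Among 18 known partners and substrates of the proteases, 2 rose and 1 fell past the edgeR threshold, and 15 did not pass it, with a median log2 fold change of 0.02. Over all tested genes 4.68% rose and 3.75% fell past it. Prelid1, a lipid carrier of the intermembrane space that YME1L1 degrades, had 1202, 1203, 884 and 758 normalized counts in MitolΔ/Δ and 611, 539, 677 and 578 in control replicates 1 to 4, with no overlap (log2 fold change 0.73, adjusted p = 0.0160). Smdt1, which encodes EMRE, the subunit of the calcium uniporter whose surplus the m-AAA protease degrades, had 541, 464, 441 and 452 against 361, 287, 336 and 308, with no overlap either (0.54, adjusted p = 0.0204). Mcu, which encodes the pore of the uniporter, had 338 ± 23.6 and 332 ± 21.8 normalized counts, and its 95% interval ran from -0.24 to 0.25 (adjusted p = 0.986). Phb2, a prohibitin that surrounds the m-AAA protease, had 1321 ± 247 and 900.2 ± 178 (0.54, adjusted p = 0.0527, past the threshold by DESeq2 with 0.0139). Without control replicate 2, 0 of the 18 were past the threshold, and without MitolΔ/Δ replicate 4, 5 were. These fits called 359 and 2501 genes in all.

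Of 16 regulators of this and related stress responses, 0 passed the edgeR threshold (8.43% of all genes) and 2 had an unadjusted p under 0.05 (26.4% of all genes). DESeq2 called 0 (14.1% of all genes) and limma-voom 0 (8.35%), and the median log2 fold change was 0.07. Foxo3, a factor of quiescence and stress resistance, had 4552 ± 268 normalized counts in MitolΔ/Δ and 5168 ± 267 in control HSCs (log2 fold change -0.20, interval -0.37 to -0.03, adjusted p = 0.119), and Myc had 1705 ± 244 and 1959 ± 427 (-0.22, adjusted p = 0.367). Atf5, the factor most directly tied to the mitochondrial response, had 72.4 ± 33.0 normalized counts in MitolΔ/Δ and 38.5 ± 15.8 in control HSCs, with overlap (log2 fold change 0.91, 95% interval 0.13 to 1.69, adjusted p = 0.130). Atf4, its partner in the integrated stress response, had 1347 ± 221 and 1510.1 ± 419 (-0.18, interval -0.59 to 0.23, adjusted p = 0.589), and Ddit3, which encodes CHOP, had 119 ± 13.8 and 145 ± 30.0 (-0.30, interval -0.70 to 0.10, adjusted p = 0.320). Hsf1, the heat shock factor, had 1164 ± 102 and 1066 ± 106 (0.11, adjusted p = 0.512). Sirt7 and Nrf1, which have been tied to the response in HSCs, had log2 fold changes of -0.02 and 0.14 (adjusted p = 0.911 and 0.325).

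Heat shock proteins of the cytosol and the ER were a further list of 11 genes, of which 10 were tested and 4 rose past the threshold, with 0 lower. Over all tested genes 4.68% rose and 3.75% fell past it. Hspa8, the constitutive HSP70 of the cytosol, had 5811, 6253, 9295 and 8372 normalized counts in MitolΔ/Δ and 4667, 4316, 5621 and 2725 in control replicates 1 to 4 (log2 fold change 0.76, adjusted p = 0.0387). Hsp90aa1 (0.86, adjusted p = 0.00963), Hsp90ab1 (0.43, adjusted p = 0.0268) and Hspa4 (0.49, adjusted p = 0.0486) also rose, all of them cytosolic. The ER chaperones Hspa5 and Hsp90b1 had log2 fold changes of 0.12 each (adjusted p = 0.812 and 0.730). Hspa1b, an inducible HSP70, had 402 normalized counts in MitolΔ/Δ replicate 3 and 55.0 in replicate 4, against 0.898 to 17.0 in the other libraries, so that the library with the most Hba-a1 also carried most of this transcript. The median log2 fold change of the list was 0.46. The number past the threshold was 2 without MitolΔ/Δ replicate 1, and 1 without MitolΔ/Δ replicate 2 or 3 or control replicate 2 or 4. These fits called 359 to 565 genes in all.

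**Figure D4:**
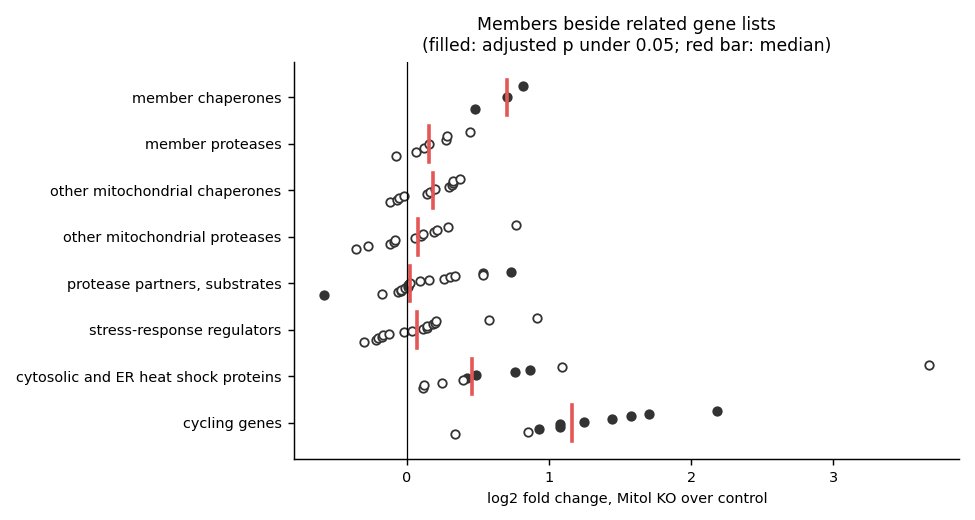
Log2 fold change by edgeR (horizontal axis) of each tested gene in 8 lists, with filled points past an adjusted p of 0.05 and a red bar at the median of each list. All member chaperones and 8 of 10 cycling genes are filled, and none of the member proteases.

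Cycling genes rose as well. Of 10 genes of DNA replication and mitosis, 8 rose past the threshold and 0 fell, with a median log2 fold change of 1.16. Over all tested genes 4.68% rose and 3.75% fell past it. The number of the 10 past it was 3 without MitolΔ/Δ replicate 1, 2 without MitolΔ/Δ replicate 2, 1 without control replicate 2 and 4 without control replicate 4. These fits called 359 to 565 genes in all. With all libraries the 8 were Mki67, Top2a, Ccnb1, Cdk1, Rrm2, Mcm5, Birc5 and Aurkb. They were led by Rrm2, a subunit of ribonucleotide reductase, with 1325 ± 484 normalized counts in MitolΔ/Δ and 288 ± 83.1 in control HSCs (log2 fold change 2.18, adjusted p = 0.00344). Mcm2 (0.85, adjusted p = 0.0575) and Pcna (0.34, adjusted p = 0.367) did not pass it. The summed normalized counts of the 10 were 22358, 22752, 15872 and 10564 in MitolΔ/Δ and 8999, 7877, 10192 and 6816 in control replicates 1 to 4. The summed chaperone counts were 3464, 3351, 2905 and 2528 in MitolΔ/Δ and 2479, 2013, 2105 and 1610.2 in control replicates 1 to 4. MitolΔ/Δ replicates 1 and 2 were highest and replicate 4 lowest of its group in both sums, and control replicate 4 was the lowest library in both. Control replicate 1 had more chaperone but fewer cycling transcripts than control replicate 3. The part of cycling, of red-cell transcripts and of Cd48 in the chaperone result was not tested.

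**Figure D5:**
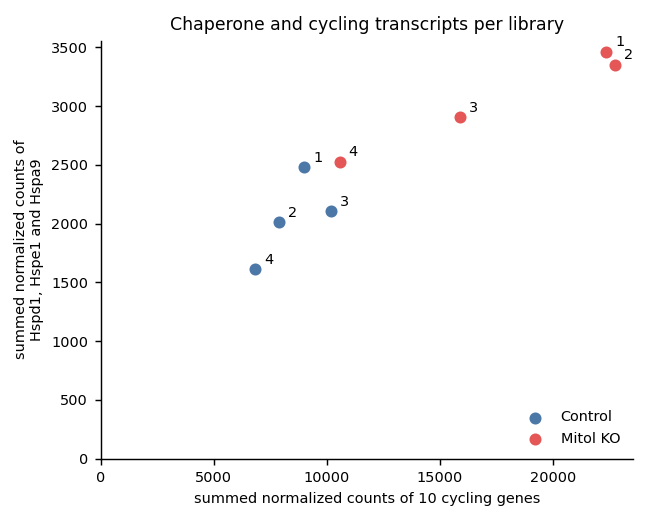
Summed normalized counts of 10 cycling genes (horizontal axis) and of Hspd1, Hspe1 and Hspa9 (vertical axis) in the 8 libraries, numbered by replicate, with control in blue and MitolΔ/Δ in red. MitolΔ/Δ replicates 1 and 2 are at the upper right, MitolΔ/Δ replicate 4 lies beside control replicates 1 and 3, and control replicate 4 is lowest on both axes.

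Within groups the chaperones varied together. After each group mean was removed from log2 CPM, Pearson's r over the 8 libraries was 0.96 between Hspd1 and Hspa9, 0.88 between Hspd1 and Hspe1 and 0.79 between Hspe1 and Hspa9. Clpp and Lonp1 followed Hspd1 with 0.91 and 0.84, and Htra2 with 0.66. Afg3l2 (0.30), Clpx (0.09) and Yme1l1 (-0.18) did so hardly or not at all, and Spg7 lay between at 0.49. These values share libraries, depth and normalization and are given as a description.

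By the same measure, the genes most like Hspd1 were Mif (0.99), Scrib (0.99), Mrps26 (0.99), Kars (0.99) and Pebp1 (0.98), out of 323 genes above 0.9. Those most like Lonp1 were Adsl (0.99), Nelfe (0.98), Map4 (0.98), Ssb (0.98) and Haus8 (0.98), out of 304. Those most like Htra2 were Ptges3-ps (0.98), Mcph1 (0.98), Gm43593 (0.97), Rev1 (0.97) and Bag2 (0.97), out of 50. So many genes followed Hspd1 or Lonp1 this closely across 8 libraries that the order among the leading names carries little weight.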

How the data were processed

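RNA was measured in 8 libraries of 100 sorted HSCs (Lineage-, EPCR+, CD150+, CD48-), 4 from MitolΔ/Δ and 4 from control mice. The paper's definition of LT-HSCs also requires CD117. The authors sequenced 75 bp from a single end, aligned with STAR to mm39, merged files with SAMtools, summed reads by gene with Subread and deposited these raw counts, which are not normalized. The annotation and strand setting of the counting are not given in the sources used here. The count table has 23094 rows, none below 11 counts in sum. Of these, 1029 carry no symbol (0.335% to 0.467% of a library's counts) and were left out.

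Groups and replicate numbers came from the sample titles. Genes were tested with edgeR (version 4.0.16, R version 4.3.3) by quasi-likelihood, with TMM, the default expression filter, group as the only term and Benjamini-Hochberg adjustment over all genes. Normalized counts are counts divided by size factors of DESeq2 (version 1.42.0). Levels per length used the canonical transcript of each gene in GENCODE on GRCm39. Correlations used log2 CPM with a prior count of 2. Promoters came from RefSeq. Pairs of libraries of the same group differed by more than sampling noise of reads (chi-square per degree of freedom 6.11 to 27.4), so none was counted as a repeated sequencing of the same library. This measure cannot tell whether the libraries came from separate mice. The depth and the number of libraries limit precision, and without molecular identifiers a read is not a separate molecule.

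The 10 genes and all lists were chosen with earlier results of these data known. All 10 are named, with list genes past the threshold, some of the most abundant of each list, the 5 most similar genes and the copies of a member. Some genes of the lists are not reported here. Chosen after their values were seen were Oma1, Mcu, Atf5, Ddit3, Hsf1, Sirt7, Nrf1, Hsp90b1, Hspa1b and Itga2b. Alternatives were size factors by RLE, no filter, DESeq2, limma-voom (limma version 3.58.1), the replicate number as a block, unnamed rows in library sizes, copies added to their parent gene, the longest transcript, and leaving out each of the 8 libraries. The scripts were checked on simulated counts. Markers of other cells were checked by summed normalized counts in MitolΔ/Δ and control HSCs, which were 16.9 to 36.6 and 38.2 to 88.9 for 6 neutrophil genes, 136 to 150.3 and 145 to 204 for 4 of 5 B-lineage genes, 20.1 to 36.0 and 35.0 to 54.3 for 2 of 5 T-cell genes, 7.32 to 13.8 and 11.3 to 21.1 for Cpa3 of 4 mast-cell and basophil genes, 383 to 1569 and 684 to 790.3 for 4 megakaryocyte genes, and 831 to 3240 and 178 to 624 for 6 red-cell genes. Past the threshold were Hbb-bt as higher and Pf4, of megakaryocytes, as lower. Itga2b, of the same megakaryocyte list, had 286, 351, 1111 and 1440 normalized counts in MitolΔ/Δ replicates 1 to 4. In control HSCs it had 519 to 589 (log2 fold change 0.49, edgeR adjusted p = 0.476). Ebf1, Cd3e, Cd3g, Cd8a, Mcpt8, Prss34 and Ms4a2 are not among the rows used here.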

Additional observations from a re-analysis of the deposited data

Results flagged for a closer look

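Afg3l2, a subunit of the m-AAA protease, had 1200.1 normalized counts in control replicate 1, while the other 3 control libraries lay between 942 and 951. The gap between it and the nearest library was large beside the range of the 4 libraries by Dixon's test. Per transcript length, control replicate 1 had 78.8 and control replicate 4 had 79.3, so control replicate 1 did not stand apart on that scale. Of 22 groups of values checked in this way 1 was flagged, and chance flags about 1 in 20.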

How the results depend on the processing

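Under another normalization, no expression filter, limma-voom, unnamed rows in the library sizes and the replicate block, Hspd1, Hspe1, Hspa9 and the other 7 genes kept their direction and their side of the threshold, as they did by DESeq2 except for Clpp (log2 fold change 0.46, adjusted p = 0.0418). When each library was left out in turn, the number of the 10 genes past the threshold ran from 0 to 4. The log2 fold change of Hspd1 ran from 0.58 to 0.86, of Hspe1 from 0.66 to 1.03 and of Hspa9 from 0.39 to 0.57, each past the threshold in 2 of 8 fits (without MitolΔ/Δ replicate 4 or control replicate 1), with adjusted p-values up to 0.0847, 0.106 and 0.0904. That of Clpp ran from 0.37 to 0.58, past it in the same 2 fits. That of Afg3l2 ran from -0.11 to 0.029 and was above 0 without control replicate 1. Genes past the threshold over all tested ran from 359 without control replicate 2 to 2501 without MitolΔ/Δ replicate 4, against 1386, with fewer libraries in each fit. In these fits the counts past the threshold were 0 to 2 of the other chaperones, 0 to 2 of the other proteases, 0 to 5 of the partners, 0 of the regulators, 1 to 9 of the cycling genes and 1 to 6 of the cytosolic and ER heat shock proteins. DESeq2 called 2 of the other chaperones and 2317 of all genes. Same-numbered libraries did not deviate together (r = 0.08, -0.07, 0.05 and 0.07), so the numbers were not taken as pairs. With the replicate number as a block, 3 of the 10 genes, 1 of the other chaperones and 1652 of all genes were past the threshold. With the longest transcript, the control level per length was 40.1 for Hspd1, 109.6 for Hspa9, 68.7 for Lonp1, 51.3 for Clpp, 53.7 for Afg3l2, 45.1 for Yme1l1, 30.2 for Spg7 and 39.6 for Htra2.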
